A study of Mus musculus with 2 samples.

Results

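The genes described here carry the signals of erythropoietin, thrombopoietin and stem cell factor, the growth factors of red cells, platelets and blood progenitors. They are 9 genes of the 55536 with Ensembl identifiers in the quantification, taken by their GENCODE M21 symbols: the ligand genes Epo, Thpo and Kitl, the receptor genes Epor and Kit, the signal carriers Jak2, Stat5a and Stat5b, and the inhibitor Sh2b3. All 9 were found in the gene and transcript quantifications of both libraries. The material was whole liver of B6NCrl mouse embryos at 12.5 days, healthy and with no treatment named, measured as polyadenylated RNA. Replicate 1 was a pool of livers from 120 embryos and replicate 2 a pool from 88, male and female together, so differences between embryos are averaged within each library. Both libraries belong to 1 group, and with no second tissue, stage or genotype the values below are levels and not responses.

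The erythropoietin receptor has no enzyme activity of its own. It holds the kinase JAK2, which phosphorylates STAT5 once the ligand is bound, and STAT5 then enters the nucleus and switches on genes for survival and growth. The receptor of stem cell factor, KIT, is itself a tyrosine kinase, and SH2B3 (LNK) is an adaptor that damps signalling from both of these receptors. In the foetal liver, blood progenitors and red cell precursors carry the receptors, while hepatic cells make erythropoietin and thrombopoietin and several non-blood cells make stem cell factor. In whole liver, fewer cells of a type and less RNA per cell cannot be told apart.

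Sequences are shown where the transcripts of a member differ in a way that bears on its product, and where a promoter could be matched to the lowest and the highest member. The first set comes from the GENCODE M21 transcripts on mm10. Kitl exon 6 (chr10:100080857-100080940, + strand) encodes the stretch at which stem cell factor is cut from the membrane, and is printed wholly in capitals. The end of Kit exon 9 (chr5:75639099-75639158, + strand) has in capitals the 12 bases that one splice form lacks. An intron of Sh2b3 with 15 bases of exon on each side (chr5:121818665-121818774, - strand) has in capitals the 80 bases that most of the gene's RNA was assigned as keeping.
Kitl exon 6: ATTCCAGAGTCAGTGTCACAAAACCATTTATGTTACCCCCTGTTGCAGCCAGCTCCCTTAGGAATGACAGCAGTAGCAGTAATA
Kit exon 9 end: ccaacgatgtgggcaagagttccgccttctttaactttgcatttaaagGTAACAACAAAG
Sh2b3 retained intron: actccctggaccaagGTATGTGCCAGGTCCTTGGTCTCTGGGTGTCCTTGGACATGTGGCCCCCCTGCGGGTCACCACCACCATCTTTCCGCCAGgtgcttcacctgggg

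The second set is the RefSeq promoter windows of Epo (chr5:137485767-137486066, - strand) and Epor (chr9:21963527-21963826, - strand) on GRCm38.p6. They run from 250 bases before to 50 bases after the RefSeq start, and capitals mark motif matches on either strand. The motifs were the GATA letters AGATAA or AGATAG or TGATAA or TGATAG, the letters CACCC bound by KLF1 and its relatives, the STAT letters TTCNNNGAA, and the hypoxia letters ACGTG.
Epo promoter: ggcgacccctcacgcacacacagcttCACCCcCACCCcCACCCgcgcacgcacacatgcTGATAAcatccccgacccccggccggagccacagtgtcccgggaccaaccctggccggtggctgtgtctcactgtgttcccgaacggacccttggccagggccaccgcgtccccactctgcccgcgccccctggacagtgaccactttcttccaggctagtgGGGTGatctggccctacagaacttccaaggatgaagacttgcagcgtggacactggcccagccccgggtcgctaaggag
Epor promoter: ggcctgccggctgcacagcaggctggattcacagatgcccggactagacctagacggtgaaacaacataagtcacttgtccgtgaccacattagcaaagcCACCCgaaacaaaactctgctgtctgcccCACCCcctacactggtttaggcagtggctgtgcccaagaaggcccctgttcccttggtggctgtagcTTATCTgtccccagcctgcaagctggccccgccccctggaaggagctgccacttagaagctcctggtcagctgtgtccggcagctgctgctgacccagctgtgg

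The Epo window held 1 GATA match at position -191 and 4 CACCC matches, and the Epor window held 1 GATA match at position -54 and 2 CACCC matches, counted from the RefSeq start. All 9 members had an entry in the RefSeq promoter table, 13 entries in all. A GATA match stood in 2 of the 13, the Epo and Epor windows, against 29.8% of all 32851 promoter windows of this length. CACCC stood in 9 of the 13 against 57.5% of all windows. Both Kit windows overlap and hold the same CACCC match, and counted by gene 7 of the 9 members had one. The hypoxia letters stood in 1, that of Sh2b3, against 19.6%, and this window lies at the start of Sh2b3-204, a transcript at 0 in both libraries. The STAT letters stood in none, against 8.3% of all windows. These matches describe letters and carry no measurement of a bound factor. The RefSeq start of Epo coincided with that of its leading transcript Epo-201, and that of Epor lay 70 bases upstream of Epor-201.

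The libraries held 37190042 and 34291772 expected reads on genes. The labelled tissue was checked against marker lists. All 7 hepatic genes listed were at 10 TPM or more, led by Afp at 5249.96 and 5064.64 TPM. So were all 7 red cell genes, whose summed level was 105697.23 and 108626.22 TPM. Endothelial and mesenchyme lists of 5 genes each were wholly at 1 TPM or more, with 3 genes of each at 10 TPM or more. Egfl7 led the endothelial list at 100.38 and 88.33 TPM, and Col3a1 the mesenchyme list at 161.21 and 160.72 TPM. TPM is a transcript level corrected for transcript length and for the total of the library, and it is used for every comparison between genes below. Spike-in RNAs took 4.99% and 5.40% of all TPM.

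Epor was the highest member, and 2 of the 3 ligand genes were the lowest. Epo had 1.94 and 1.40 TPM and Thpo 2.35 and 2.22 TPM in replicates 1 and 2, while Epor had 132.44 and 129.87 TPM. All 9 members were at 1 TPM or more, against 54.5% of 21951 protein-coding genes. At 10 TPM or more were 7 members, 1 of the 3 ligands and all 6 of the others, against 32.1% of protein-coding genes. At 100 TPM or more was 1 member, Epor, against 5.4% of protein-coding genes. The median of the members was 14.8 TPM, and the median of all protein-coding genes was 1.87 TPM.

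**Figure D1:**
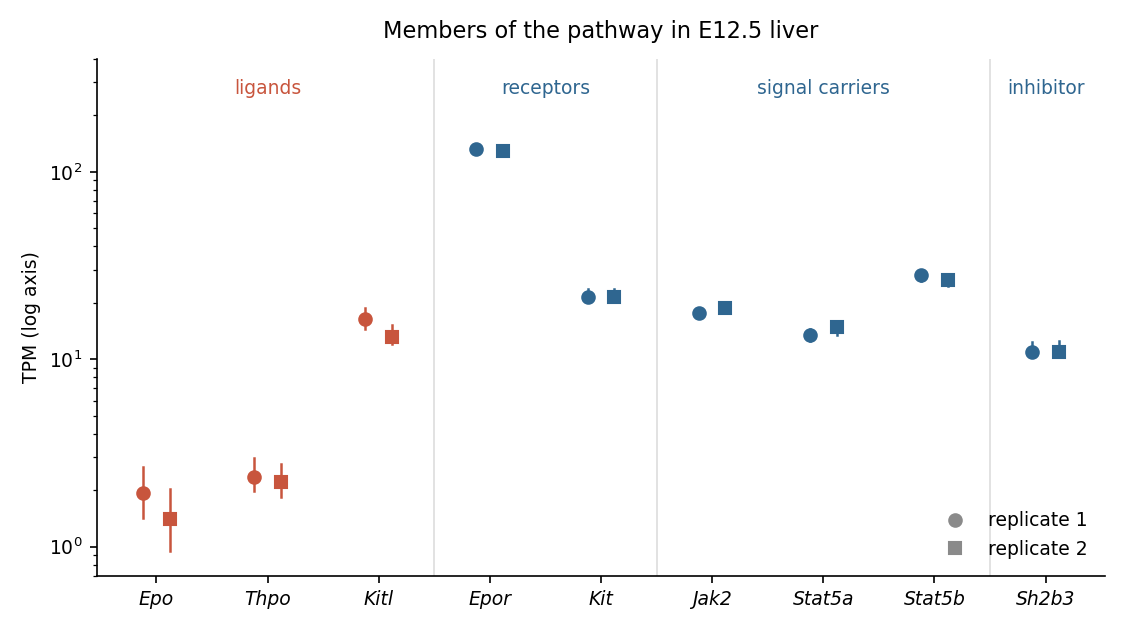
Level of each member in TPM on a log axis, with circles for replicate 1, squares for replicate 2 and vertical lines for the interval deposited with each value. Ligands stand at the left, and Epo and Thpo lie near 2 TPM while Epor lies above 100 TPM in both libraries.

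Epo, the gene of erythropoietin (ENSMUSG00000029711.13, chr5:137483020-137533242, - strand), was the lowest member. It had 40.01 and 26 expected reads, and counting error alone gives exact 95% Poisson intervals of 28.6 to 54.5 and 17.0 to 38.1 for the rounded counts. The mean was 1.67 ± 0.38 TPM (SD, n = 2), which ranked at percentile 49.2 of protein-coding genes. The reads were few but present in both libraries, and replicate 1 was the higher. The adult kidney is another known source of erythropoietin. Of the 5 kidney and germ cell genes listed none reached 1 TPM, with Umod at 0 in both libraries. The sum of that list was 0.70 and 0.60 TPM. Part of the list is germ cell genes, and genes of the adult kidney could be low in any embryonic tissue. The list therefore cannot show which cells gave the Epo reads, and their source was not tested.

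Thpo, the gene of thrombopoietin, the growth factor of megakaryocytes (ENSMUSG00000022847.15, chr16:20724454-20734511, - strand), had 116.57 and 99 expected reads. Its mean was 2.29 ± 0.09 TPM (SD, n = 2), at percentile 51.8 of protein-coding genes. Thpo was above Epo in each library, by 1.37-fold in the means. The interval deposited with the Thpo values ran from 1.97 to 2.96 TPM in replicate 1 and from 1.84 to 2.75 TPM in replicate 2, and overlapped those of Epo, 1.42 to 2.65 and 0.95 to 2.03 TPM. The level these intervals stand for is not stated in the tables.

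Kitl, the gene of stem cell factor (ENSMUSG00000019966.18, chr10:100015630-100100416, + strand), had 16.41 and 13.18 TPM, a mean of 14.8 ± 2.28 TPM (SD, n = 2). It was the only ligand above 10 TPM. Its percentile was 73.4, and it stood among the signal carriers in the order of levels. Its values overlapped those of Stat5a, and the 2 libraries put Kitl and Stat5a in opposite order.

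Epor, the erythropoietin receptor of red cell precursors (ENSMUSG00000006235.6, chr9:21958897-21963506, - strand), had 6746 and 6027 expected reads. Its mean was 131 ± 1.82 TPM (SD, n = 2), rank 912 and percentile 95.8 among protein-coding genes. It exceeded the next member, Stat5b, 4.80-fold. Kit, the stem cell factor receptor of blood progenitors (ENSMUSG00000005672.12, chr5:75574916-75656722, + strand), had 21.60 and 21.44 TPM, the second smallest relative spread of the members at a coefficient of variation of 0.53%. Mast cells also carry KIT, and of 5 mast cell genes listed 2 were at 1 TPM or more, Hdc and Cpa3, with a list sum of 9.17 and 8.86 TPM. Of the other mast cell genes, Ms4a2 had 0.44 and 0.17 TPM, Tpsb2 0.06 and 0.24 TPM, and Mcpt4 was at 0 in both libraries. Which cells gave the Kit reads was not tested.

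Jak2, the kinase held by the erythropoietin receptor (ENSMUSG00000024789.13, chr19:29251828-29313080, + strand), had 17.68 and 18.73 TPM. Stat5a (ENSMUSG00000004043.14, chr11:100859351-100885169, + strand) had 13.43 and 14.81 TPM, against 28.23 and 26.41 TPM for Stat5b (ENSMUSG00000020919.11, chr11:100780731-100850724, - strand). Stat5a and Stat5b encode closely related transcription factors and lie 8626 bases apart, pointing away from each other. Their ratio of Stat5a to Stat5b was 0.48 and 0.56, or -0.91 ± 0.16 on the log2(TPM + 1) scale (SD, n = 2), so Stat5b was the higher in both libraries. Reads shared between these near-identical genes were divided by the authors' quantification, which gave their counts a posterior SD of 10.7 and 10.4 reads. Sh2b3, the inhibitory adaptor (ENSMUSG00000042594.16, chr5:121815488-121837646, - strand), had 10.93 and 10.88 TPM and was the lowest of the 6 members that are not ligands.

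From the highest to the lowest mean the order was Epor, Stat5b, Kit, Jak2, Kitl, Stat5a, Sh2b3, Thpo and Epo. Neighbours in this order kept their order in both libraries except Kitl and Stat5a. The intervals deposited with the values also overlapped for Jak2 and Kitl and for Thpo and Epo, so these neighbours were close relative to the uncertainty of the quantification. The largest steps were the 4.80-fold step from Epor to Stat5b and the 4.77-fold step from Sh2b3 to Thpo, which sets Thpo and Epo apart from the rest. With 2 libraries no ranking of genes by likeness of pattern was made.

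By medians, the contrast of ligands with receptors and carriers was large in both libraries. The median of the 3 ligands, which is the Thpo value, was 2.35 and 2.22 TPM. That of the 6 receptors, carriers and inhibitor was 19.6 and 20.1 TPM. Kitl was an exception to the contrast, with a mean above those of Stat5a and Sh2b3. The log2 ratio of the medians with a pseudocount of 1 TPM was -2.62 and -2.71, a mean of -2.67 ± 0.06 (SD, n = 2). Summed, the ligands had 20.7 and 16.8 TPM, against 224.31 and 222.14 TPM for the others, of which Epor supplied the greater part. Without Epor the sum of the others was 91.87 and 92.27 TPM. An exact sign-flip test over 2 libraries cannot give a p below 0.5, so no test was made, and the spread between libraries is the only error given beside these ratios.

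**Figure D2:**
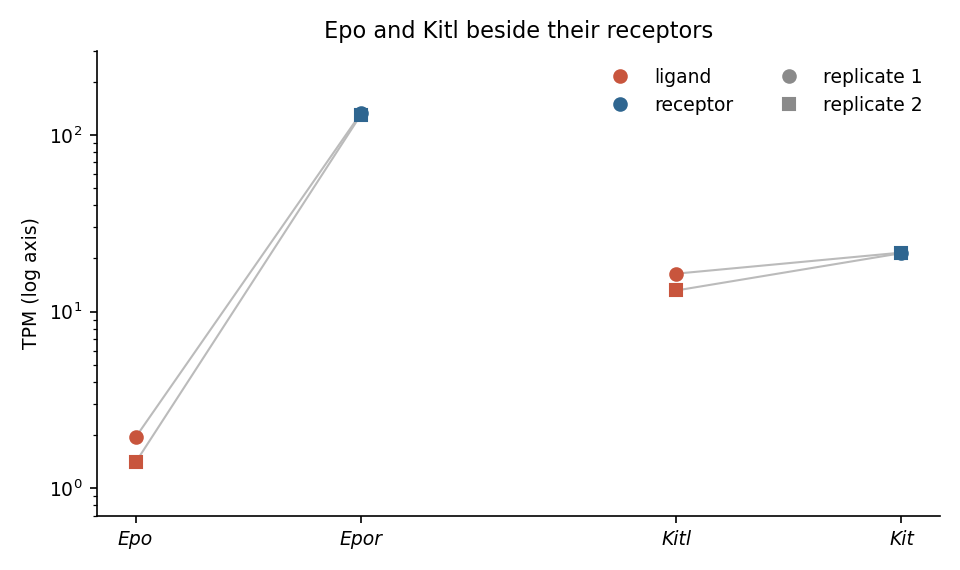
Epo and Kitl, each beside the gene of its receptor, in TPM on a log axis, with circles for replicate 1, squares for replicate 2 and a line joining the values of a library. The Epo to Epor line is the steeper, and Kitl lies close to Kit.

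The pairs differed in how far the ligand lay below its receptor. Epo had 1.94 and 1.40 TPM and Epor 132.44 and 129.87 TPM, so Epor was 68.3-fold and 92.8-fold higher, a log2 ratio of ligand to receptor of -5.64 ± 0.19 on the log2(TPM + 1) scale (SD, n = 2). Kitl had 16.41 and 13.18 TPM and Kit 21.60 and 21.44 TPM, a log2 ratio of -0.52 ± 0.20. Ligand was below receptor in both pairs and in both libraries. Thpo acts on megakaryocytes, and the 4 megakaryocyte genes listed were all at 10 TPM or more, led by Pf4 at 723.60 and 623.32 TPM.

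The other receptors and ligands of the same kind give the background to this contrast. Of 15 other cytokine receptor genes listed, 11 were at 1 TPM or more, 5 at 10 TPM or more and none at 100 TPM. Which cells of the liver gave their reads was not tested. The highest were Il11ra1, a receptor chain of interleukin 11, at 34.6 ± 2.01 TPM, the growth hormone receptor gene Ghr at 20.7 ± 0.18 TPM and Lifr at 18.8 ± 3.07 TPM (SD, n = 2). The lowest were Il7r at 0.25 and 0.48 TPM and the prolactin receptor gene Prlr at 0.11 and 0.03 TPM. Epor was thus higher than each of the 15 in both libraries. Of 10 other cytokine genes, 2 were at 1 TPM or more and none at 10 TPM, so that Kitl was higher than each of them. Csf1, the macrophage growth factor gene, had 7.26 and 7.32 TPM, Flt3l had 4.81 and 4.23 TPM and Osm had 0.46 and 0.40 TPM. Il3 and Csf2, growth factor genes typical of activated lymphocytes, had no read in either library, and a count of 0 allows up to 3 reads.

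Jak2 was the second of the 4 JAK genes. It made up 21.1% and 21.7% of their summed TPM, against 59.8% and 59.3% for Jak1, which serves interferon and interleukin receptors. Jak3 had 8.75 and 7.67 TPM and Tyk2 7.15 and 8.69 TPM. Among the 7 STAT genes, Stat5a and Stat5b together made up 37.4% and 36.1%, and Stat3 alone 28.1% and 29.4%. Stat4 was the lowest STAT gene at 2.06 and 1.79 TPM, and Stat2 had 7.42 and 7.05 TPM. Stat6 had 16.12 and 16.25 TPM, close above Stat5a. All 8 JAK and STAT genes that are not members were at 1 TPM or more and 4 of the 8 at 10 TPM or more.

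Below the receptors, all 14 adaptor and enzyme genes listed were at 1 TPM or more and 9 at 10 TPM or more. The adaptors Grb2 and Shc1, which link receptors to RAS, led with 70.4 ± 6.36 and 50.3 ± 3.75 TPM, followed by Crkl at 33.3 ± 2.26 TPM (SD, n = 2). Gab2 had 3.40 and 3.21 TPM and the RAS activator gene Sos1 2.16 and 2.45 TPM. Of the 11 other genes listed as inhibitors or as relatives of Sh2b3, all were at 1 TPM or more and 6 at 10 TPM or more. The phosphatase genes Ptpn1 and Ptpn6 had 32.5 ± 0.42 and 26.0 ± 0.21 TPM. Sh2b1, a relative of Sh2b3, had 14.4 ± 0.21 TPM, so Sh2b3 made up 39.9% and 38.7% of the summed TPM of the 3 SH2B genes. Sh2b2 had 2.14 and 2.63 TPM and the feedback inhibitor gene Socs1 1.52 and 1.54 TPM.

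Of 9 genes known to be induced by erythropoietin or STAT5, 8 were at 1 TPM or more, 6 at 10 TPM or more and 2 at 100 TPM or more. The transferrin receptor gene Tfrc had 279 ± 6.91 TPM, the survival gene Bcl2l1 110 ± 5.61 TPM and the kinase gene Pim1 94.5 ± 1.19 TPM (SD, n = 2). Erfe, which encodes the red cell hormone erythroferrone, had 6.58 and 5.33 TPM and Osm 0.46 and 0.40 TPM. Most of these genes are also under other controls, and Cish, Socs2 and Socs3 stand among the inhibitors as well. Of 8 genes that control ligand production, Hif1a had 28.2 ± 0.42 TPM, its partner Arnt 20.3 ± 1.71 TPM and Hnf4a 12.8 ± 0.22 TPM. Epas1, which encodes the hypoxia factor HIF2A, had 1.10 and 1.61 TPM. Asgr1, a chain of the hepatic receptor that raises Thpo on taking up aged platelets, had 0.53 and 0.43 TPM. Of 3 genes of proteases that can release stem cell factor, Adam10 had 87.2 ± 3.36 TPM, Adam17 22.2 ± 1.79 TPM and Mmp9 1.59 ± 0.01 TPM (SD, n = 2).

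**Figure D3:**
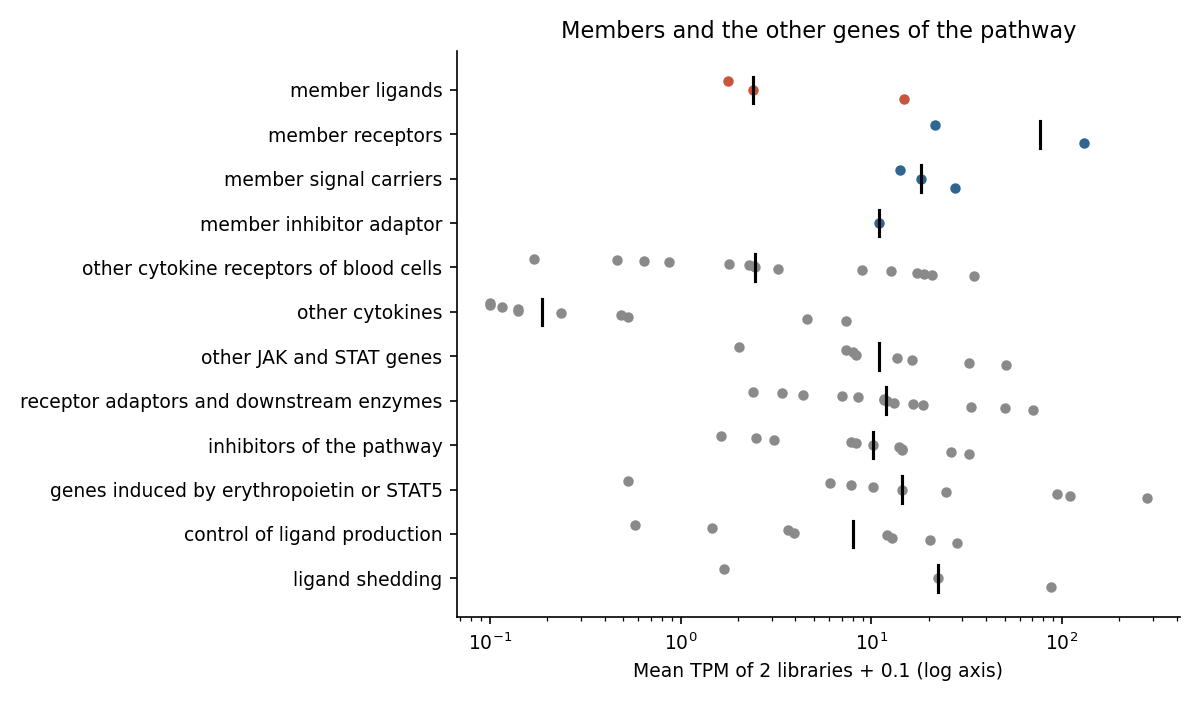
Mean TPM of 2 libraries plus 0.1 on a log axis for each gene of the members and of the other pathway lists, with a vertical line at the median of each list. The other cytokines lie lowest, and of the genes shown Tfrc and Epor lie farthest to the right.

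Between the libraries the relative spread of the members' TPM ran from a coefficient of variation of 0.32% for Sh2b3 to 15.4% for Kitl and 22.9% for Epo. The ratio of replicate 2 to replicate 1, scaled by the TMM method, passed 2-fold with its interval outside the scaled split in none of the 9 members, against 2.38% of 17369 genes. At that share few or no calls among 9 genes are no result about the members. Epo had the largest ratio, -0.50 on the log2 scale, with an exact 95% binomial interval from -1.28 to 0.24. The interval lay off 0 for 1 member, Jak2, at a log2 ratio of 0.09, and for 22.6% of all genes tested. The libraries differed by more than counting error over all genes, with a chi-square of 3.74 per degree of freedom, so they were counted as 2 samples.

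For Kitl the reads and the TPM gave different ratios between the libraries. Its expected reads were 1901 and 1786, a scaled log2 ratio of 0.03, whereas its TPM of 16.41 and 13.18 gave a log2 ratio of -0.32. The effective length that divides the reads was 3546 bases in replicate 1 and 4481 bases in replicate 2. Kitl-205, a noncoding transcript of 372 bases, received 26.2 reads and 2.94 TPM in replicate 1 and none in replicate 2. Kitl-201, of 1260 bases, had 3.43 and 2.08 TPM, and Kitl-202, of 5648 bases, had 9.58 and 10.11 TPM. The part of each transcript in the shift was not tested. The libraries were thus close in Kitl reads and apart in the length by which the reads were divided.

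The older annotation GENCODE M4, applied to the same libraries, left every member within 1.5-fold. None of the 9 members differed by 1.5-fold in both libraries, against 5.51% of 13235 genes. Kit had 21.60 and 21.44 TPM under M21, against 19.54 and 19.42 TPM under M4, a log2 ratio of 0.14 in each library. Epor had 132.44 and 129.87 TPM under M21, against 123.99 and 118.97 TPM under M4. Its log2 ratio was 0.09 and 0.13. The median log2 ratio of all genes was -0.04 in both libraries.

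At the transcript level 45 transcripts are annotated for the members, and 33 were above 0 in at least 1 library. At 10% or more of their gene's TPM in both libraries stood 15 transcripts, and every member had the same leading transcript in both libraries. The members with 1 such transcript were Epo, Epor, Jak2 and Stat5b, and the other 5 had several. Transcripts annotated as coding for a protein made up over 90% of the TPM in both libraries for 6 of the 9 members. The others were Kitl, at 82.1% and 100%, Kit, at 73.1% and 72.4%, and Sh2b3, at 22.5% and 27.5%.

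**Figure D4:**
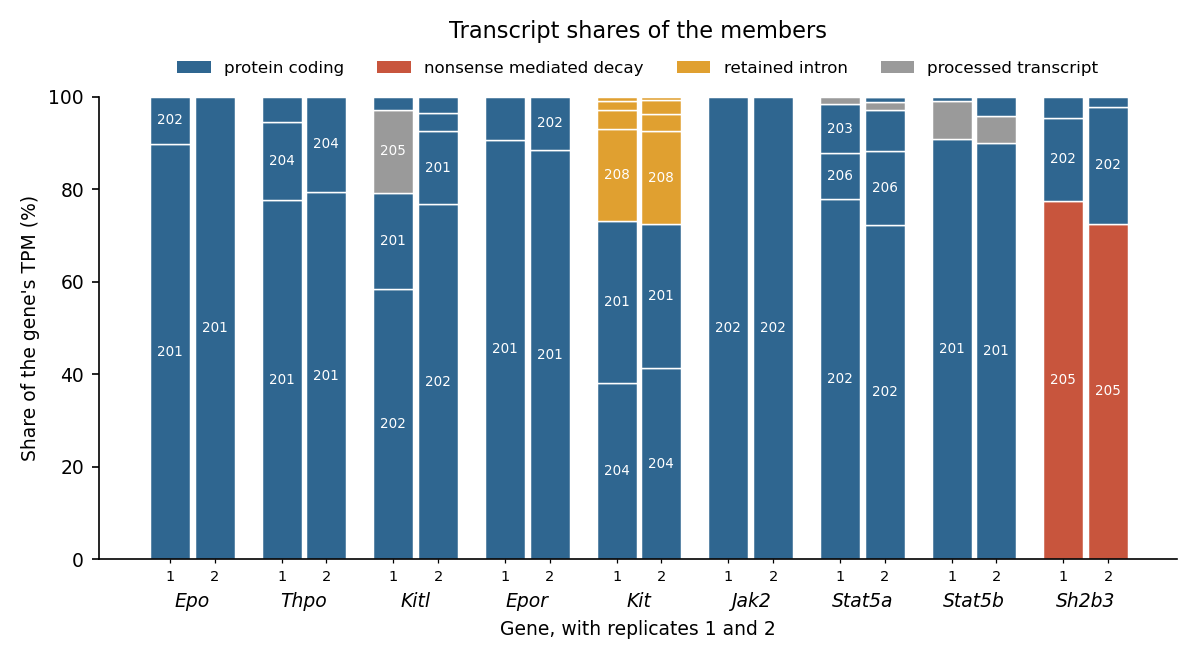
Share of each gene's TPM taken by each of its transcripts, in percent, in replicates 1 and 2, coloured by the annotated class and numbered where the share is at least 10%. Sh2b3 is mostly of the decay class, Kit has a retained-intron part, and the other members are mostly protein coding.

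Kitl-202, which holds exon 6 and so encodes the form of stem cell factor that can be released, took 58.3% and 76.8% of the gene's TPM. Kitl-201, which skips exon 6 and encodes the form that stays on the membrane, took 20.9% and 15.8%. The form that holds the exon was the higher in both libraries. These transcripts also differ elsewhere: Kitl-202 holds 4388 bases that Kitl-201 lacks, of which 84 are exon 6 and most of the others are a longer 3′ end. The division therefore does not rest on exon 6 alone, and by expected reads Kitl-202 had 1736 and 1697 against 130 and 73.0 for Kitl-201. The stretch of exon 6 printed above is the coding difference, with 819 coding bases in Kitl-202 and 735 in Kitl-201.

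Kit was divided between the splice forms that differ in the 12 bases printed above, which add a short stretch of the protein just outside the membrane. Kit-201, with the 12 bases, took 35.0% and 31.2% of the gene's TPM, and Kit-204, without them, took 38.1% and 41.2%. Their posterior SDs were between 160 and 188 reads on counts of 1033 to 1383, and the forms had 1263 and 1383 reads in replicate 1 and 1033 and 1375 reads in replicate 2. The order of these forms is therefore uncertain in both libraries. The starts of the forms differ by 39 bases, which also entered the division.

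A further 19.9% and 20.1% of Kit TPM went to Kit-208, a transcript annotated as a retained intron, with 432 and 401 reads. It begins 453 bases before exon 17, in intron 16, and runs through the last 5 exons, and so lacks the exons of the outer part of the receptor. A shortened Kit that begins in this part of the gene is known from mouse spermatids. The germ cell genes Ddx4 and Dazl had 0.29 and 0.41 TPM and 0.25 and 0.06 TPM in these livers. Spermatids are not part of an embryonic liver, so these values cannot tell what Kit-208 is, which was not tested. Kit-207, an annotated intron block of 3104 bases in the same part of the gene, took 4.12% and 3.78%. Reads of unspliced RNA cannot be told apart from such transcripts here.

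Sh2b3-205, annotated as subject to nonsense-mediated decay, took 77.5% and 72.5% of Sh2b3 TPM, with 1167 and 1007 reads. It keeps the 80-base intron printed above, which starts with GT and ends with AG, and its annotated coding length is 1110 bases. Sh2b3-202, which encodes the full protein from 1644 coding bases, took 17.8% and 25.3%, with 261 and 340 reads. Sh2b3-205 also ends 160 bases farther downstream and lacks 122 bases of Sh2b3-202 near the 5′ end, of which 34 lie before its start. The division rests on these differences as well as on the intron. The level of Sh2b3 given above thus counts transcripts of which most are not annotated as making the full adaptor.

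**Figure D5:**
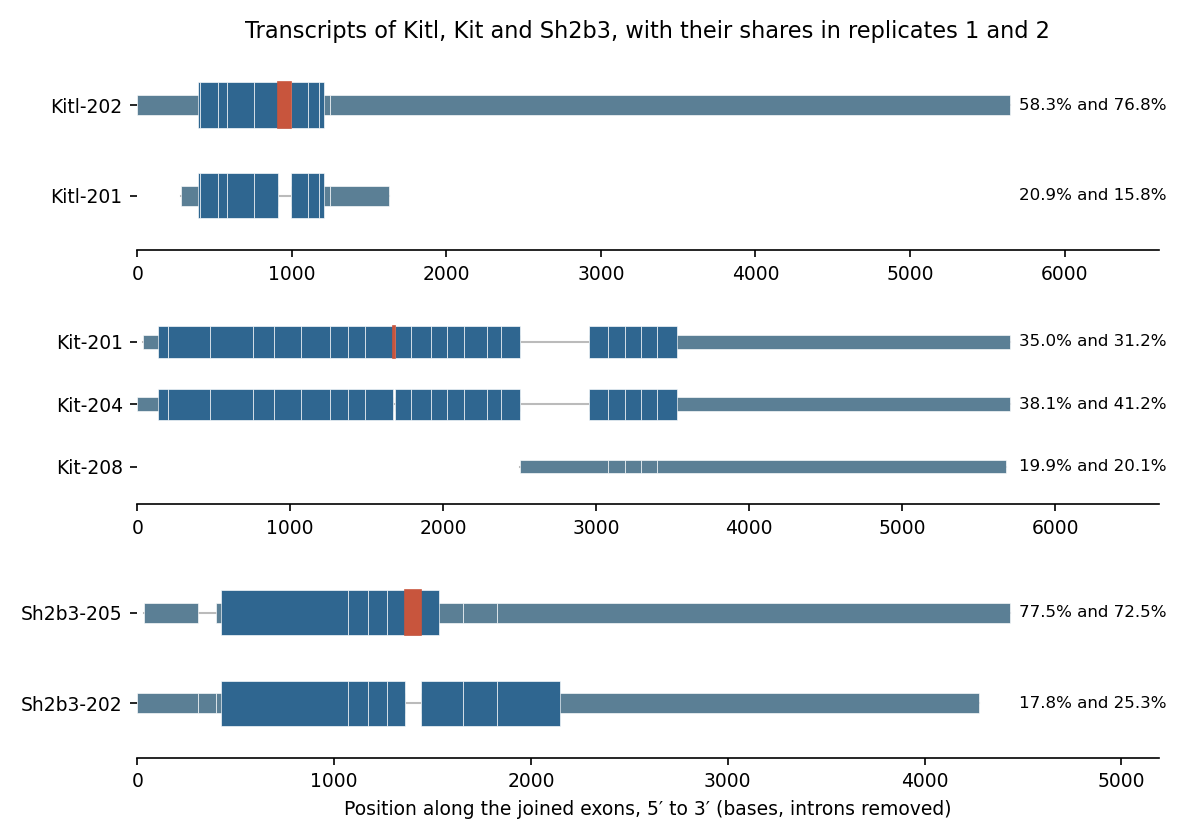
Transcripts of Kitl, Kit and Sh2b3 drawn to scale along their joined exons in bases, with tall blocks for coding and low blocks for noncoding exon parts, and red for the stretch that separates the forms. The percentages are shares of the gene's TPM in replicates 1 and 2, and Kitl-202 and Sh2b3-205, which hold the red stretch, lead their genes.

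The other members had simpler patterns. Epor-201 took 90.7% and 88.4% of Epor TPM, and the rest was Epor-202, a fragment with an open end that starts in intron 1 and had 226 and 255 reads. Thpo-201 took 77.5% and 79.4%, and Thpo-204, with 87 more bases in exon 3 and 19.8 and 20.9 reads, took 16.9% and 20.6%. The reads of Thpo-204 had posterior SDs of 12.2 and 9.58, and these forms also differ at their starts and ends, so their division is uncertain. Epo-201 took 89.7% and 100% of Epo TPM. The rest in replicate 1 was Epo-202, with 4.90 reads, whose exons share 104 bases with Gnb2, a gene of 185.62 and 179.50 TPM on the same strand, so these few reads are uncertain. Jak2-202 was assigned all Jak2 reads in both libraries. Jak2-201, with the same start, end and coding length, had 0 reads with a posterior SD of 36.05 and 42.01 reads, so this division is uncertain. Stat5b-201 took 90.9% and 90.0%. Stat5a-202 took 77.8% and 72.2%, and the open-ended Stat5a-206 took 10.1% and 16.1%.

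The use of strand is not given in the sources used here, so reads of overlapping genes on opposite strands may have been mixed. Exons of Sh2b3 share 99 bases with Atxn2, those of Stat5a share 72 bases with Stat3 and those of Thpo-202 share 239 bases with Chrd, all on the opposite strand. The leading transcripts of the other members share no exonic base with another annotated gene.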

How the data were processed

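Polyadenylated RNA of 2 pooled mouse liver samples was quantified by the authors; the deposited expected counts are reads divided among genes or transcripts, and the deposited TPM values correct these for effective length, per the file headers. The quantifier is not given in the sources used here. The deposited notes name mm10 with GENCODE M21, used here, and M4. Other deposited values, the TPM intervals and the count's posterior SD, were used as given. Among 81881 M21 entries, 96 were spike-ins and 26249 others had no Ensembl identifier (under 0.001% of the expected counts). Both kinds were left out of library sizes.

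The 9 members and all gene lists were chosen with earlier results of these data known. Every member is named, and 1 listed gene is not reported here. Of each list of other pathway genes, the 3 highest and up to 2 lowest genes by mean TPM are named, with further genes named after their values were seen. This rule did not cover the cell type marker lists, of which only some genes are named. Ratios are log2((TPM + 1)/(TPM + 1)). Libraries were compared on expected counts rounded to whole numbers with edgeR 4.0.16 TMM scaling, a mean count of at least 10, a prior count of 0.5, a 2-fold limit and an exact 95% binomial interval, which covers counting error only. DESeq2 1.42.0 size factors, spike-in totals, total counts, other filters, pseudocounts, posterior mean TPM, M4 and each library alone were alternatives. Sequences came from GENCODE M21 and RefSeq.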

Additional observations from a re-analysis of the deposited data

How the results depend on the processing

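Of 18 alternatives to the ratios that could move them, 13 stayed within the spread between libraries and 5 moved, with the ligand still below the receptor. Leaving out a library (8 alternatives) cannot move a mean of 2 past their SD, and leaving out members under 1 TPM removed none, so these say nothing on stability. The log2 ratio of ligands to receptors and carriers was -2.67, and it was -3.07 with a pseudocount of 0.1 TPM, -2.60 under M4, -3.51 with summed TPM and -2.78 without Sh2b3. With a pseudocount of 0.1 TPM the ratio of Epo to Epor was -6.23. Leaving out each library in turn, the ratios ranged from -2.71 to -2.62 for the ligands, from -5.77 to -5.50 for Epo, from -0.66 to -0.38 for Kitl and from -1.02 to -0.79 for Stat5a to Stat5b. The members at 10 TPM or more remained 7 in number and those differing between libraries or annotations 0 in each setting tried. Between libraries, calls over all genes ran from 48 of 13398 (mean count of at least 50) to 771 of 17369 (1.5-fold limit). Between annotations they ran from 738 of 42462 (no filter on low values) to 892 of 13235 (pseudocount of 0.1 TPM). At such shares few or no calls are likely among so few members, so the 0 says nothing on their stability. The count of transcripts at 10% or more was 13 to 18. Of 27 alternatives to the members' TPM 12 moved past the spread between libraries, and of 27 to the shares of single transcripts, chosen for this after the data were seen, 13 did. The share of Thpo-201 was 64.9% by posterior mean TPM and 99.6% under M4, against 78.5%, and that of Kit-204 51.4% under M4, against 39.7%. The share of Epo-201 was 62.6% by posterior mean TPM, against 94.8%, and that of Kitl-201 5.46% by expected counts, against 18.3%. The causes were not tested. No paired analysis was possible because there is 1 group. With 26 and 40.01 reads, Epo is the member that depth limits most.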
